A study of Mus musculus with 4 samples.

Results

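Enzymes that clear reactive aldehydes, carbonyls and epoxides were compared in NIH-3T3 cells, an established line of mouse fibroblasts, after exposure to small molecules that activate chaperone-mediated autophagy (CMA), the delivery of single proteins to lysosomes. The set holds 9 named genes, Aldh1a1, Aldh1a7, Aldh2, Aldh3a2, Cbr1, Cbr3, Akr1b8, Akr1a1 and Ephx1, out of 36838 gene names on the array. Members were found by matching the accession of each gene probe to these symbols, which gave 10 probes at 19 spots out of 55378 probes with a value. Ephx1 had 2 probes, every other member had 1, and the Akr1b8 probe was printed at 10 spots. Wild-type cells were grown to confluency in medium with serum and left untreated, or were given 20 µM of AR7, CA39 or CA77 for 24 h. AR7 is the parent compound, and CA39 and CA77 are analogs built on its scaffold. Total RNA was labelled with Cy3 and hybridised to 4 arrays, 1 per group. Without replicate cultures every difference sets 1 array against another, and neither a test nor an interval between cultures is possible. The compounds were dissolved in DMSO and the control is labelled as having no treatment, so vehicle and compound cannot be told apart in the differences from untreated.

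Aldehyde dehydrogenases oxidise aldehydes to carboxylic acids. Carbonyl reductases and aldo-keto reductases reduce aldehydes and ketones to alcohols with NADPH, and microsomal epoxide hydrolase opens reactive epoxides with water. Such carbonyls arise from lipid peroxidation, sugars, alcohol and retinoids, and several of these enzymes are textbook targets of the oxidative stress regulator NRF2. Aldh1a1 is also known for making retinoic acid, the ligand of the receptor that the compounds were designed to bind.

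All 10 member probes were well above background on all 4 arrays, so no member value is a bound. Over all probes, between 52.2% and 69.7% were well above background, with the untreated array highest. Median net signal ran from 138 to 167.5 scanner units, and 0 spots were saturated on any array. Levels are given as quantile-normalized log2 intensity, on which 1 unit is a 2-fold change of the same probe, and levels of different probes are not compared because each probe binds with its own strength. Probes printed 10 times gave a tolerance of 0.16 (log2) for the difference of a pair of arrays, which covers error within arrays and not the error between cultures. It does not pair spots of the same position. Spot by spot, the median SD of the difference from untreated was 0.070 (AR7), 0.063 (CA39) and 0.064 (CA77). Arrays within the tolerance may therefore still differ. As a limit for calling a difference, the tolerance is nevertheless lenient. With CA39 53.7% of all compared genes were past it (6 of 9 members), with CA77 49.8% (5 of 9) and with AR7 41.2% (6 of 9). The untreated array lay in another row of the slide than the treated arrays, and the CA77 array was read in a separate scan, so position and scan cannot be told apart from treatment. Of 8 fibroblast markers, 7 were well above background on every array, and Pdgfrb was so with CA39 only. Of the other lists, the epithelial Krt5 and Krt14, the endothelial Pecam1, Cdh5 and Kdr, the leukocyte Cd3e, the adipocyte Fabp4 and the hepatocyte Cyp2e1 were well above background on all 4 arrays, while the epithelial Cdh1, the adipocyte Adipoq and the hepatocyte Alb and Ttr were so on 0.

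The widest differences among the 9 members were those with CA39. Aldh1a1 was 4.02-fold lower than in untreated cells, Aldh1a7 was 4.26-fold lower and Cbr3 was 7.02-fold higher. With AR7 and CA77 these genes were within 2-fold of untreated, and Ephx1 lay farthest above untreated with AR7 and Aldh2 with CA77. With AR7 this order was not stable, since Cbr3 lay above the brighter Ephx1 probe in the series table (0.694 against 0.687) and with both scalings of the processed signal. In total, 3 of 9 members were past 2-fold with CA39, where 5.29% of all compared genes were, with 1 higher (3.86% of all genes) and 2 lower (1.43%). The count was 0 of 9 with AR7 (3.06% of all genes) and 0 of 9 with CA77 (3.22%). At a 1.5-fold limit the counts were 1 with AR7 (6.51% of all genes), 4 with CA39 (11.8%) and 2 with CA77 (7.79%). Several members lay at the edge of this limit, and over the alternative settings the counts ran from 1 to 3 with AR7, 3 to 4 with CA39 and 1 to 2 with CA77. With 9 members, 1 gene is a share of 11.1%, so the AR7 and CA77 counts cannot be set apart from those shares. The CA39 count is no test either, since members were chosen with earlier results of these data known. In addition, the Aldh1a1 and Aldh1a7 probes may bind the same RNA and so may not be separate calls. In bulk RNA, fewer cells of a type and less RNA per cell cannot be told apart.

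**Figure D1:**
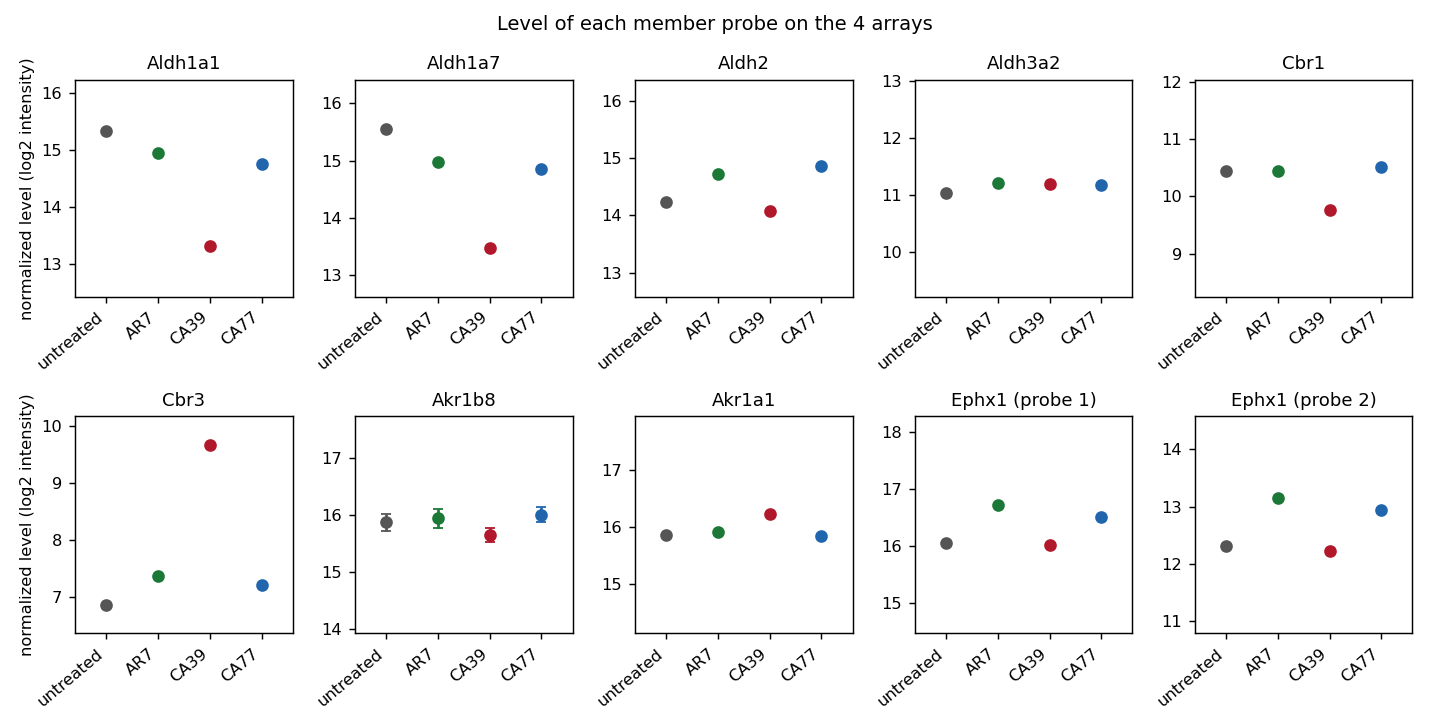
Normalized level (log2 intensity, vertical axis, the same span of 3.8 units in each panel) of the 10 member probes on the untreated, AR7, CA39 and CA77 arrays (horizontal axis). Each point is 1 array, and bars on Akr1b8 are the SD over its 10 spots. The CA39 point is the lowest by more than the tolerance for Aldh1a1, Aldh1a7, Cbr1 and Akr1b8 and the highest for Cbr3 and Akr1a1.

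The Aldh1a pair was examined first. Aldh1a1 encodes a cytosolic enzyme that oxidises retinaldehyde and products of lipid peroxidation, and Aldh1a7 encodes its close rodent relative. They are neighbours on chromosome 19, with 0 protein-coding genes between them. RefSeq gives Aldh1a1 2 start sites, and the 250 bases before the second (build GRCm38.p6, chr19:20601718-20601967, plus strand) resemble those before Aldh1a7 (chr19:20727557-20727806, minus strand). They are printed because these neighbours gave the same order of arrays. Aldh2, Cbr1 and Akr1b8 also shared an order (CA77, AR7, untreated, CA39), and their windows were not aligned with each other. Capitals mark the longest run of identical bases, which is 65 bases long and ends 30 bases before the start in both.
Aldh1a1: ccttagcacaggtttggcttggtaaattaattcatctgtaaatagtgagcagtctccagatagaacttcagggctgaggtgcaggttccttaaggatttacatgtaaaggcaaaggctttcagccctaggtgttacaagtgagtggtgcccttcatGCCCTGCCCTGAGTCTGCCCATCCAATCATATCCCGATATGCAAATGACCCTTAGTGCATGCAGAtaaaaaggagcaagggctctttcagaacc
Aldh1a7: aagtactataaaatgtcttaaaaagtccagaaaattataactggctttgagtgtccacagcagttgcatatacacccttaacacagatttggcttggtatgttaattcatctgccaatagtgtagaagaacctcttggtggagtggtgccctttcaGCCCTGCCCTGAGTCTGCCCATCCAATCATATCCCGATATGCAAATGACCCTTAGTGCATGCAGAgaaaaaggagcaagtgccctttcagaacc
In a global alignment, 183 of 269 columns were identical (68.0%). The window before the first start of Aldh1a1 shared a run of 8 bases with Aldh1a7 and had 54.0% identical columns. Which start the cells use was not measured by these arrays.

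The Aldh1a1 probe read 15.33 (untreated), 14.94 (AR7), 13.32 (CA39) and 14.75 (CA77). The untreated array was highest, the AR7 and CA77 arrays lay below it by more than the tolerance, and CA39 stood apart from all of them. From untreated, CA39 differed by -2.01, CA77 by -0.58 and AR7 by -0.39. Among 20594 genes well above background on all arrays, 47 (0.228%) lay at least as far below untreated with CA39.

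The Aldh1a7 probe read 15.56 (untreated), 14.98 (AR7), 13.47 (CA39) and 14.86 (CA77). The order of the arrays was the same as for Aldh1a1, and AR7 and CA77 were within the tolerance of each other. The differences from untreated were -0.58, -2.09 and -0.70 in the order AR7, CA39 and CA77. With CA39, 46 of 20594 genes (0.223%) lay at least as far down. In net scanner units the Aldh1a7 spot went from 49544 on untreated to 11601.5 on CA39, and that of Aldh1a1 from 41816 to 10440, so neither rests on dim signal. Because the genes are closely related, a probe of either may bind RNA of both, and how much of each signal comes from the relative was not tested.

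Genes with the most similar pattern were sought by Euclidean distance over the 3 differences from untreated, among 13019 named genes well above background on all arrays. Aldh1a7 and Aldh1a1 were among the nearest 3 genes of each other, at a distance of 0.24 (log2). The nearest to Aldh1a1 was Gypc (0.20), a membrane protein of red cells, with differences of -0.31, -2.12 and -0.43. The nearest to Aldh1a7 were Serpina3b (0.11), of the serine protease inhibitor family, and Barx2 (0.18), a homeobox gene. Serpina3b differed by -0.61, -2.18 and -0.64, and Barx2 by -0.59, -2.23 and -0.82.

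Aldh2 encodes the mitochondrial enzyme that oxidises acetaldehyde. Its probe read 14.23 (untreated), 14.72 (AR7), 14.08 (CA39) and 14.87 (CA77). The AR7 and CA77 arrays were high and within the tolerance of each other, and the untreated and CA39 arrays were low and also within it. The gene was 1.40-fold higher than untreated with AR7 and 1.56-fold higher with CA77, while its difference with CA39 was -0.15. In the CA77 comparison, 234 of 20594 genes (1.14%) lay at least as far above untreated.

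Aldh3a2 encodes the fatty aldehyde dehydrogenase of the endoplasmic reticulum. Among the members it had the smallest range over the 4 arrays. The probe read 11.03 (untreated), 11.20 (AR7), 11.19 (CA39) and 11.17 (CA77). Its treated arrays lay within 0.04 of each other and above untreated by 0.17, 0.16 and 0.14, all close to the tolerance. The AR7 value alone was past it, but in the deposited series table the differences were 0.29, 0.30 and 0.28, all past it.

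**Figure D2:**
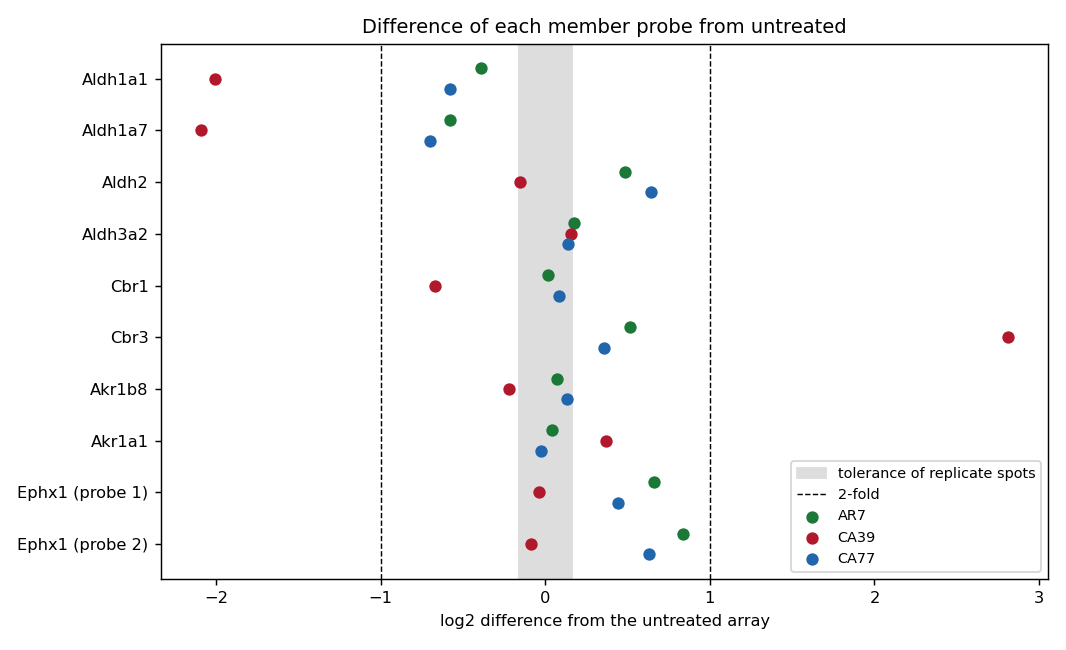
Log2 difference of each member probe from the untreated array (horizontal axis) with AR7, CA39 and CA77, 1 row per probe. The grey band is the tolerance of 0.16 from replicate spots and dashed lines are 2-fold; the CA39 points of Aldh1a1, Aldh1a7 and Cbr3 lie outside the dashed lines and all other points inside.

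The carbonyl reductases came next. Cbr1 and Cbr3 encode related cytosolic reductases that use NADPH to reduce quinones and other carbonyls, and they are neighbours on chromosome 16 with 0 protein-coding genes between them. Their upstream windows (chr16:93607587-93607836 and chr16:93682969-93683218, GRCm38.p6, both plus strand) are printed because these neighbours lay on opposite sides of untreated with CA39. Capitals mark the longest identical run, of 7 bases.
Cbr1: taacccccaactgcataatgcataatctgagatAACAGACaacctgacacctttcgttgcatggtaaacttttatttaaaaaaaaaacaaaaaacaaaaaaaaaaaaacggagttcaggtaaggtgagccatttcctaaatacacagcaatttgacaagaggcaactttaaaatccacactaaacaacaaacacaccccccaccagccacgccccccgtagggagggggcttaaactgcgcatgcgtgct
Cbr3: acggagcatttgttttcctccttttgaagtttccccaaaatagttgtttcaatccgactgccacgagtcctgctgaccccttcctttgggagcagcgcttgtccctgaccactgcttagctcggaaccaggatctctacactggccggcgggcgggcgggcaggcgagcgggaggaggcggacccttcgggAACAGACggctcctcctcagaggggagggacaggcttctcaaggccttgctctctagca
Of the alignment columns, 43.1% were identical. Other pairs of member windows aligned in the same way, Akr1b8 with Akr1a1, Aldh3a2 with the Aldh1a pair and the 2 Aldh1a1 windows with each other, had 47.8% to 50.9%, against 68.0% for the Aldh1a1 and Aldh1a7 windows printed above.

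The Cbr3 probe read 6.86 (untreated), 7.37 (AR7), 9.67 (CA39) and 7.21 (CA77). CA39 lay far above the others, AR7 and CA77 were within the tolerance of each other, and untreated was lowest. The differences from untreated were 0.52, 2.81 and 0.36 in the order AR7, CA39 and CA77. Of 20594 genes, 38 (0.185%) lay at least as far above untreated with CA39. In net scanner units the spot read 137 (untreated), 199 (AR7), 870 (CA39) and 147.5 (CA77). This is a dim probe, and the size of its change depended on the processing. The CA39 difference was 2.38 (5.21-fold) with a background offset and 3.44 (10.9-fold) in the authors' deposited table, so the direction held and the fold did not. The genes of most similar pattern were Cyp3a11 (distance 0.37), a cytochrome P450, Pla2g7 (0.41), a secreted phospholipase, and Slc2a5 (0.41), a fructose transporter. With CA39 they differed by 2.56, 2.54 and 2.49.

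The Cbr1 probe read 10.44 (untreated), 10.45 (AR7), 9.77 (CA39) and 10.52 (CA77). The CA39 array was low and the other three lay within the tolerance of their neighbours. Cbr1 was 1.59-fold lower than untreated with CA39, a difference of -0.67, while the differences with AR7 and CA77 were 0.01 and 0.08. With CA39, 658 of 20594 genes (3.20%) lay at least as far down.

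The aldo-keto reductases lay near untreated on all arrays. Akr1b8 encodes a reductase of the aldose reductase family, first described as a protein induced by fibroblast growth factor. Its 10 spots read from 15.65 to 16.02 (untreated), 15.69 to 16.13 (AR7), 15.41 to 15.76 (CA39) and 15.76 to 16.11 (CA77), with SDs of 0.15, 0.17, 0.12 and 0.13. These ranges overlapped, and on every array the 4 spots in the highest grid rows were the dimmest. Taken spot by spot, the differences from untreated were narrower. CA39 gave -0.22 ± 0.04, AR7 0.07 ± 0.03 and CA77 0.13 ± 0.04 (SD, 10 spots). The CA39 differences ran from -0.27 to -0.15, those of AR7 from 0.02 to 0.12 and those of CA77 from 0.08 to 0.24, so CA39 overlapped neither of the others. Spots of the same array share its RNA, so they measure the array and not the culture. In size these are a 1.16-fold lower level with CA39 and a 1.10-fold higher level with CA77.

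**Figure D3:**
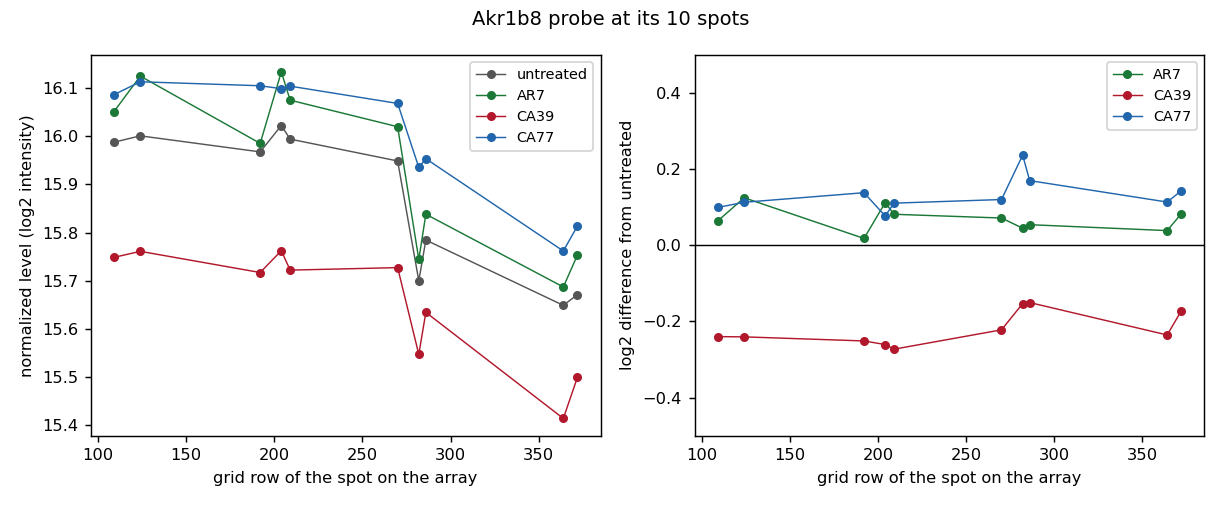
The Akr1b8 probe at its 10 spots, by grid row on the array (horizontal axis): normalized level (left, log2 intensity) and log2 difference from untreated (right). Each point is 1 spot; levels are lowest in the highest grid rows on all 4 arrays, while the CA39 differences stay between -0.27 and -0.15.

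Akr1a1 encodes aldehyde reductase, which acts on a wide range of aldehydes. Its probe read 15.86 (untreated), 15.90 (AR7), 16.23 (CA39) and 15.84 (CA77). CA39 was high and the other arrays lay within the tolerance of each other. Akr1a1 was 1.29-fold higher than untreated with CA39, and its differences with AR7 and CA77 were 0.04 and -0.02.

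Ephx1 encodes microsomal epoxide hydrolase and is the member with 2 probes. The brighter probe read 16.07 (untreated), 16.73 (AR7), 16.02 (CA39) and 16.51 (CA77), and the dimmer probe 12.30, 13.14, 12.22 and 12.93 in the same order. Both probes gave the order AR7, CA77, untreated, CA39, with untreated and CA39 within the tolerance. Ephx1 was 1.58-fold higher than untreated with AR7 and 1.36-fold higher with CA77 by the brighter probe, and 1.79-fold and 1.54-fold higher by the dimmer. The CA39 differences were -0.04 and -0.09. With AR7, 280 of 20594 genes (1.36%) lay at least as far above untreated as the brighter probe.

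Over the 9 members, the median difference from untreated was -0.15 for CA39 (-0.02 over all compared genes), 0.07 for AR7 (-0.03) and 0.13 for CA77 (-0.04). The members thus spread in both directions around a centre near 0. With CA39, they ranged from -2.09 to 2.81, while the 5th and the 95th percentile of all compared genes were -0.58 and 0.79.

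**Figure D4:**
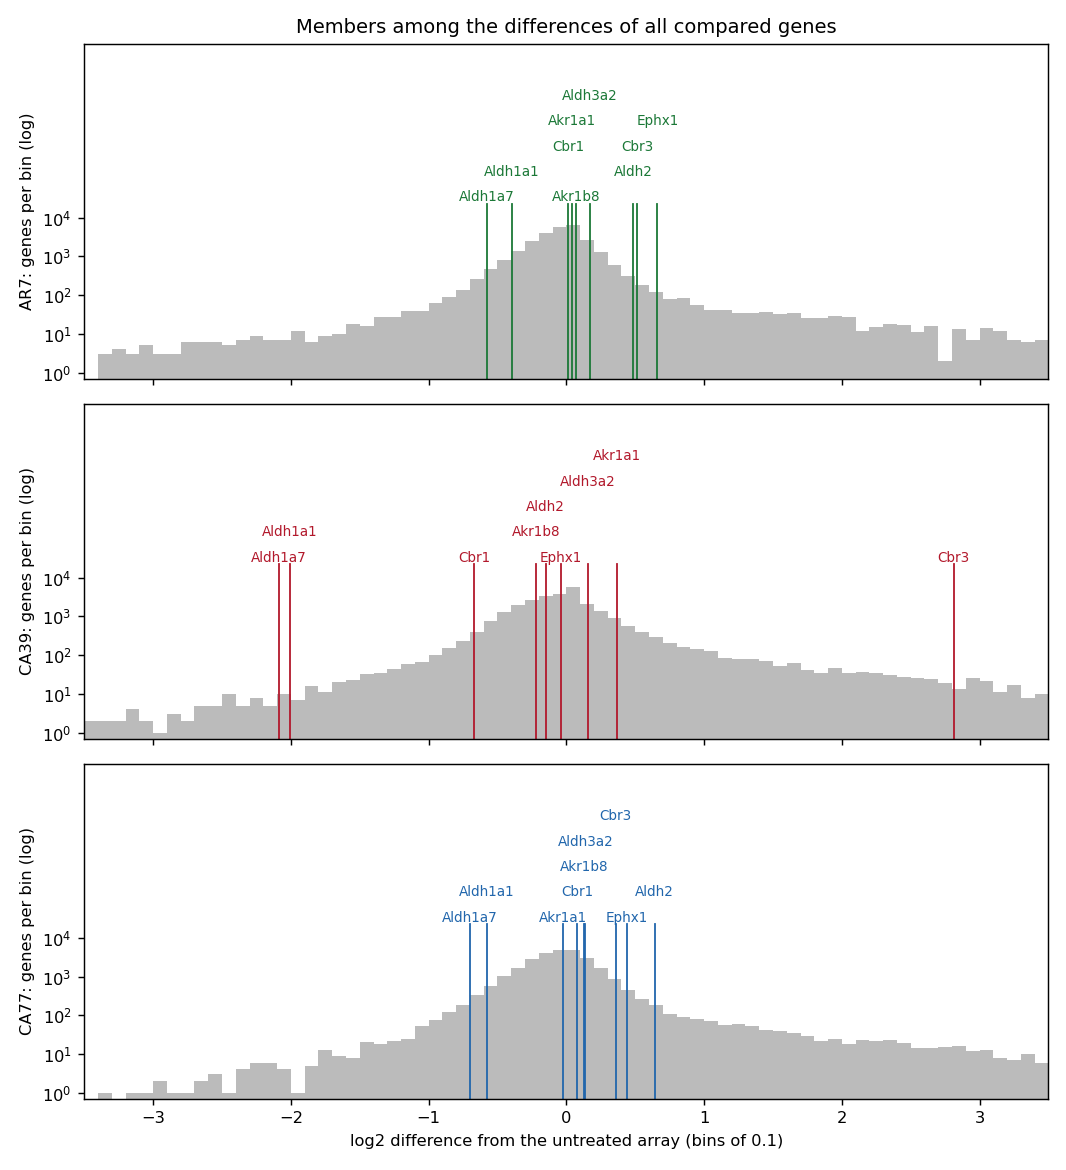
Number of genes per bin of 0.1 (log10 vertical axis) by log2 difference from untreated (horizontal axis) for AR7, CA39 and CA77, with a line at the difference of each member (brighter probe for Ephx1). Genes beyond 3.5 on either side are not drawn (60 with AR7, 87 with CA39 and 48 with CA77); Aldh1a1, Aldh1a7 and Cbr3 lie in the sparse tails of the CA39 panel.

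The compounds were given at the same dose for the same time, so their arrays were also compared directly in 3 pairs. AR7 and CA77 differed by at most 0.22 (log2) on any member, and 0 of 9 members were past 2-fold (4.31% of all genes) or 1.5-fold (6.90%). Their differences, AR7 minus CA77, ran from -0.15 for Aldh2 to 0.22 for Ephx1, and those of Aldh1a1 (0.18) and Ephx1, 2 of 9 members, were past the tolerance (39.5% of all genes). CA39 stood apart from both. Against AR7, 3 of 9 members were past 2-fold (8.30% of all genes) and 6 past 1.5-fold (16.9%), and against CA77 these counts were 3 (7.48%) and 5 (14.7%). Aldh1a1 was 3.06-fold higher with AR7 and 2.70-fold higher with CA77 than with CA39, and Aldh1a7 was 2.85-fold and 2.62-fold higher. Cbr3 was 4.91-fold higher with CA39 than with AR7 and 5.48-fold higher than with CA77. Aldh2 was 1.56-fold higher with AR7 and 1.73-fold higher with CA77 than with CA39, Cbr1 was 1.61-fold and 1.68-fold higher, and Ephx1 by its brighter probe 1.63-fold and 1.40-fold higher. The dimmer Ephx1 probe gave 1.90-fold and 1.64-fold, and with the mean of both probes the 1.5-fold count against CA77 was 6. With 1 culture per compound, whether these pairs would differ again in other cultures was not tested.

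Markers of cell type also differed with CA39. Of 8 fibroblast markers, 3 were past 2-fold higher (3.86% of all genes): the collagen gene Col1a1 by 1.06 (log2), the growth factor receptor gene Pdgfra by 1.19 and Pdgfrb, which passed detection only through the CA39 array, at least 8.49-fold. With AR7, Col1a1 was past 2-fold the other way, at -1.04. The summed level of the 8 fibroblast markers was 19.91 with CA39, above 19.73 (untreated), 19.56 (CA77) and 19.49 (AR7). Of 4 epithelial markers, Epcam was well above background with CA39 only and was at least 4.18-fold higher there. Krt5 and Krt14 were detected on all 4 arrays and differed by 0.60 and 0.32 with CA39, Cdh1 was detected on 0, and their summed level ran from 9.08 (untreated) to 9.77 (CA39). Both bounds for undetected probes are against the higher of the probe's own signal and the lowest detected signal of the untreated array, and fall to 7.48-fold for Pdgfrb and 3.14-fold for Epcam when the 1st percentile over detected probes is the floor. Summed endothelial markers stayed between 11.91 and 12.08, leukocyte between 10.19 and 10.47 and hepatocyte between 8.08 and 8.32. Such sums are carried by the brightest probe of a list, and the endothelial Cdh5 on its own gave 0.62 (AR7), 0.01 (CA39) and 0.52 (CA77) as differences from untreated. Of the 3 adipocyte markers, the lipid carrier Fabp4 differed by -1.59 with CA39, Plin1 was well above background on 2 of 4 arrays and Adipoq on 0. Their summed level was 11.31 (untreated), 10.61 (AR7), 9.83 (CA39) and 10.93 (CA77), the same order as for Aldh1a1 except that AR7 and CA77 change places. The part of such markers in the Aldh1a1, Aldh1a7 and Cbr3 differences was not tested.

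Short motifs were searched on both strands of the 250 bases before the start, in 9 windows of 8 members that RefSeq lists (Aldh2 was not matched). The core of the antioxidant response element bound by NRF2, TGACNNNGC, was in 0 of 9 windows and in 10.2% of 32536 such windows over all genes. The core of the xenobiotic response element bound by the aryl hydrocarbon receptor, GCGTG, was in 3 windows, those of Aldh3a2, Cbr1 and Akr1b8, and in 28.3% of all. The nuclear receptor motif AGGTCA was in 0 windows and in 14.0% of all. Read on the opposite strand, AGGTCA holds the letters TGAC that open the antioxidant motif, so a stretch can match both. The absence of these letters says nothing of sites elsewhere.

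Other genes of these enzyme families, together with 11 aldehyde-clearing enzymes of other families, made 58 further symbols, of which 57 were on the array and 43 were well above background on all 4 arrays. Past 2-fold either way were 4 of 51 compared genes with CA77 and 3 of 50 with each of the other compounds, all higher, beside the shares of all genes given above. Their medians were 0.01 (AR7), 0.04 (CA39) and 0.00 (CA77). The gene farthest from untreated among the dehydrogenases was Aldh3a1, which oxidises aromatic and medium-chain aldehydes and was no member of the set. Its brighter probe read 11.96 (untreated), 15.95 (AR7), 11.99 (CA39) and 15.54 (CA77), so the AR7 and CA77 arrays were high and CA39 was level with untreated. The second Aldh3a1 probe gave differences of 4.67, -0.12 and 4.41. Aldh1l1, a folate enzyme that oxidises formyltetrahydrofolate, read 8.46 (untreated), 7.81 (AR7), 11.60 (CA39) and 7.92 (CA77), so that it was high with CA39 alone. Gsta4, which joins glutathione to hydroxynonenal, and Ptgr1, which reduces the double bond of such aldehydes, belong to the aldehyde-clearing enzymes of other families. Both were past 2-fold higher with all 3 compounds, Gsta4 by 4.69 (AR7), 1.15 (CA39) and 4.18 (CA77) and Ptgr1 by 1.82, 1.37 and 1.82. The Ptgr1 probe was dim, at 6.10 on untreated, and its differences were not recomputed under the alternative scalings. Aldh1a3, a further retinaldehyde dehydrogenase, was well above background with CA77 only, so its difference is a lower bound, past 2-fold against the lowest detected signal (at least 1.53) but not against the 1st percentile of detected signal (at least 0.80). With the latter limit the CA77 count was 3. Past 2-fold with any compound were 0 of the 10 aldo-keto reductases, 0 of the 13 carbonyl reductases and 0 of the 3 epoxide hydrolases that could be compared. Beside shares of 3.06% (AR7), 5.29% (CA39) and 3.22% (CA77) of all genes, a count of 0 does not set lists of this size apart.

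**Figure D5:**
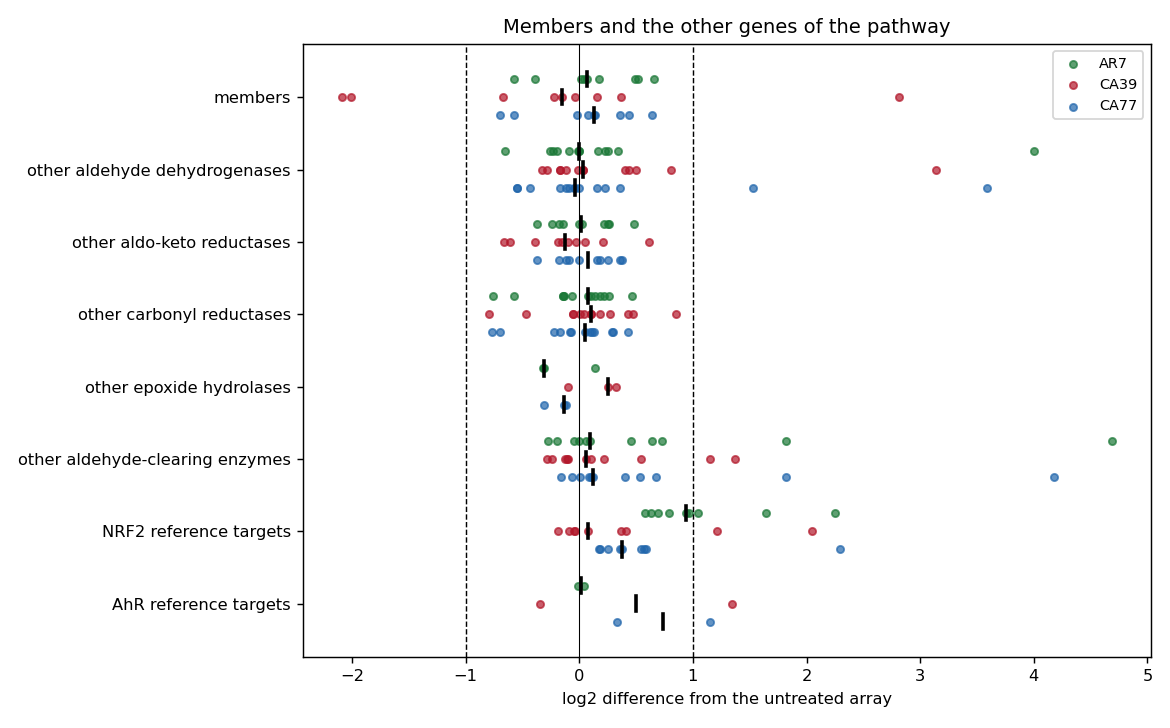
Log2 difference from untreated (horizontal axis) of the 9 members and of the genes in each list, by compound; each point is 1 gene that could be compared, black ticks are medians and dashed lines are 2-fold. Medians of the enzyme lists lie between -0.31 and 0.25, and the points past 2-fold higher include Aldh3a1 and Gsta4 with AR7 and CA77 and Aldh1l1 with CA39.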

How the data were processed

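Total RNA of 4 NIH-3T3 cultures was measured on 1-colour Agilent 8x60K arrays. The submitters' processing notes name Agilent Feature Extraction 10.7.3.1, oligo and RMA. The authors deposited the scanner output, which holds the median intensity of each spot, its background and marks of quality. The deposited series table equalled the background-subtracted intensity exactly, with no tolerance, at 62976 of 62976 spots per array. RMA values were not used here.

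Groups came from the treatment label. In limma 3.58.1 under R 4.3.3, spot medians were corrected for background (normexp, no offset), control spots were removed, and arrays were quantile normalized and log2 transformed, following the steps of RMA. Spots marked as non-uniform or population outliers were left out (142 to 328 per array; 0 of the member spots), and spots of a probe were averaged. Detection of a probe needed the scanner's well-above-background mark on more than 50% of its spots. Accessions were matched without versions to RefSeq GRCm38.p6, which named 27512 probes with 20895 symbols; the array design cites an earlier build, so coordinates are given for RefSeq windows only. The brightest probe stood for a gene. In comparisons over all genes a value not above background was raised to the lowest detected signal of its array. Past 2-fold means a log2 difference of at least 1 with detection on either array. With 1 array per group, no test was run, and the number of arrays limits the precision. The tolerance is the square root of 2 times the SD of replicate spots (median over probes, then over arrays). It was taken over those of the 399 probes printed 10 times that were well above background on the array. The averaging of spots and the 2-fold limit were checked on simulated data with known changes, which does not bear on the error between cultures. Members and lists were chosen with earlier results of these data known. Named were all members, the 3 nearest genes of each member past 2-fold, and list genes past 2-fold. Alternatives covered scaling, background, floor, filter, probe choice, local position, outlier spots and the fold limit.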

Additional observations from a re-analysis of the deposited data

How the results depend on the processing

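Every member probe was well above background on all arrays, and no member spot was marked an outlier. The settings for the floor, the filter and outlier spots therefore returned the main values by construction. They are included in the totals below, so those totals overstate how far the results were tested. Counts of members past 2-fold stayed within 1.5 times the value reported in 62 of 66 recomputations. The exceptions were all the 1.5-fold limit, which admits smaller changes by construction. It gave 1 member with AR7, 2 with CA77, 6 for CA39 against AR7 and 5 for CA39 against CA77. The counts at the lower limits were recomputed under the same alternatives, a choice made after seeing the data. At 1.5-fold, AR7 gave 3 with the quantile-normalized processed signal (6.63% of all genes). It gave 2 with the 75th percentile scaling (6.83%), the series table (6.13%) and the local median. CA77 gave 1 with the series table (10.3%) and with the local median. The local median was taken off member spots only, so it has no share over all genes. Past the tolerance, CA77 gave 8 with the series table, where 53.1% of all compared genes were past it. CA39 gave 8 with the 75th percentile scaling, where 55.7% were, and ran from 6 to 8 over the settings. The 30 recomputed medians stayed within the tolerance of 0.16 (log2). Of 270 recomputed single differences, 264 stayed within it, 0 of those past 2-fold changed sign, and the other 6 were all of the dim Cbr3 probe. Its CA39 difference was 3.25 with the 75th percentile scaling, 3.39 with the quantile-normalized processed signal, 3.44 with the deposited series table and 2.38 with an offset of 50, and its AR7 difference was 0.70 with the processed signal and 0.69 with the series table. Taking off the median difference of spots within 10 rows and columns, a check of position, moved no member's difference by more than the tolerance, but carried Aldh2 with CA39 (-0.19) and Akr1b8 with CA77 (0.17) across it, so that 7 members were past it with CA39 and 6 with CA77. For AR7 against CA77, Cbr3 crossed it, which made 3. The 75th percentile scaling moved the median difference with CA39, over probes well above background on all arrays, to -0.12. Near 0, signs changed between settings for Cbr1 with AR7 (-0.02 to 0.09), Akr1a1 with CA77 (-0.02 to 0.08) and the dimmer Ephx1 probe with CA39 (-0.12 to 0.05). No paired analysis was possible because each group has 1 array, and no replicate could be left out.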

Other observations

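Reference targets of NRF2 were examined beside the enzymes, as values only. All 9 genes of the list were well above background on every array. With AR7, 3 were past 2-fold, all higher (3.06% of all genes either way), and the median difference was 0.94 (log2; -0.03 over all genes). With CA39, 2 were past it (5.29%) and the median was 0.07 (-0.02), and with CA77 1 was past it (3.22%) and the median was 0.37 (-0.04). For the quinone reductase Nqo1 the differences were 2.25 (AR7), 0.37 (CA39) and 2.29 (CA77). In that order, the cystine transporter Slc7a11 gave 1.65, 2.05 and 0.54 and the heme oxygenase Hmox1 0.97, 1.21 and 0.37. The pentose phosphate enzyme Pgd gave 1.05, 0.41 and 0.57. The Slc7a11 probe was dim on untreated (6.76), and differences of these reference targets were not recomputed under the alternatives. Of 4 reference targets of the aryl hydrocarbon receptor, Cyp1a1 and Ahrr were not well above background on any array. Cyp1b1 gave -0.01 (AR7), 1.34 (CA39) and 1.15 (CA77), and Tiparp 0.04, -0.35 and 0.33.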
